A study of Mus musculus with 12 samples.

Results

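The transcription factor p53, encoded by *Trp53*, and the genes it is known to control were followed as a panel of 34 genes in mouse embryonic stem cells (ESCs) and in the epiblast-like cells (EpiLCs) made from them. The panel was taken by gene symbol from a fixed list of p53 and its targets, and all 34 symbols were found among the 57180 genes of the deposited tables. It was divided by role into p53 itself and its feedback (5 genes), arrest and cell cycle (7 genes), apoptosis and death receptors (11 genes), DNA repair and deoxynucleotide supply (5 genes), and metabolism, redox and secreted products (6 genes).

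RNA was sequenced from 12 libraries, 3 in each of 4 groups: Neg ESCs, 3xKD ESCs, Neg EpiLCs at day 2 and 3xKD EpiLCs at day 2. All cells were E14 mouse ESCs that carry a doxycycline-inducible dCas9-based repressor, grown from a single picked clone, and all were kept under the drugs that select for the integrated vectors. Neg cells carried scramble guide RNAs, and 3xKD cells carried guide RNAs against *Pcx*, *Me1* and *Me2*, the enzymes that carry pyruvate to oxaloacetate and malate and back, in a design that asks what the loss of this pyruvate cycle does to each pluripotent state. ESCs were held in naive medium (2iLIF), and EpiLCs were induced with Fgf2, activin A and XAV939. Doxycycline for these libraries is taken from the study, since the labels do not name it. Neg and 3xKD are 1 line each, so the guides and any other difference between the lines cannot be told apart. The labels do not say whether the 3 libraries of a group came from separate cultures. The study's methods give at least 3 biological replicates for its experiments unless a legend states otherwise. With 1 line each, the p-values measure only the spread between these libraries. The labels' cell type entry reads ESCs for every Neg library and EpiLCs for every 3xKD library, and the titles, in which both lines have both states, were followed.

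p53 is a sequence-specific activator of transcription that is held low in unstressed cells by Mdm2, a ubiquitin ligase whose own gene p53 switches on, so that the pair forms a feedback loop. DNA damage and metabolic stress release it from Mdm2, and its targets then slow the cell cycle, repair DNA, adjust metabolism or kill the cell. In ESCs p53 is known for promoting differentiation of damaged cells as well as their death. Its activity is set mainly at the level of the protein, which was not measured here.

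p53 binds an element made of 2 adjoining half-sites of 10 bases, each with 3 purines, a C, 2 bases that are A or T, a G and 3 pyrimidines. Matches without a spacer, with the C and G of both cores kept and at most 2 mismatches elsewhere, were looked for within 5000 bases on either side of the annotated start of each of 17041 tested protein-coding genes. The element reads the same on both strands, so a single scan covered both. A full match was found for 1 of the 34 genes, *Zmat3*, against 0.205% of all genes scanned. With 1 mismatch allowed there were 8 of 34 genes against 1.78%, and with 2 mismatches 15 of 34 against 10.6%. The elements with at most 1 mismatch are printed here in GRCm39, in the direction of the gene and with the core of each half-site from C to G in capitals, because a match of this kind marks a gene as a possible direct target.

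*Zmat3*, intron, chr3:32418480-32418499, minus strand, no mismatch: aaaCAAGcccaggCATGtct
*Zmat3*, upstream, chr3:32424300-32424319, minus strand, 1 mismatch: gagCAAGtctgggCTTGtta
*Cdkn1a*, upstream, chr17:29309902-29309921, plus strand, 1 mismatch: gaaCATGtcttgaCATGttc
*Ccng1*, upstream, chr11:40646289-40646308, minus strand, 1 mismatch: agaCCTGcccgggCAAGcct
*Ccng1*, intron, chr11:40645763-40645782, minus strand, 1 mismatch: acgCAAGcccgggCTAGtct
*Gtse1*, intron, chr15:85744146-85744165, plus strand, 1 mismatch: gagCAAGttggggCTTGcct
*Psrc1*, intron, chr3:108291972-108291991, plus strand, 1 mismatch: gggCATGttgaggCATGccc
*Gdf15*, untranslated exon, chr8:71084616-71084635, minus strand, 1 mismatch: tgaCTTGcctgaaCTTGcct
*Tigar*, intron, chr6:127083149-127083168, minus strand, 1 mismatch: gggCTTGtttagcCTTGccc
*Rps27l*, intron, chr9:66853578-66853597, plus strand, 1 mismatch: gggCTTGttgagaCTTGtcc

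Of the 19 elements found near panel genes, 8 lay upstream of the start, 10 in an intron and 1 in an untranslated exon. The *Cdkn1a* element lay at −2826 bases from the main start and just upstream of the first base of another protein-coding transcript of the gene (ENSMUST00000119901, from position 29309953 on chromosome 17). *Ccng1* was the gene with an element on each side close to its start, at −160 and 366 bases. The remaining elements, with 2 mismatches, belonged to *Bax*, *Ckap2*, *Eda2r*, *Fas*, *Perp*, *Plk2* and *Pmaip1*. A match is a description of the sequence, and a gene without one in this window, such as *Mdm2*, may be bound elsewhere or through an element with a spacer.

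**Figure D1:**
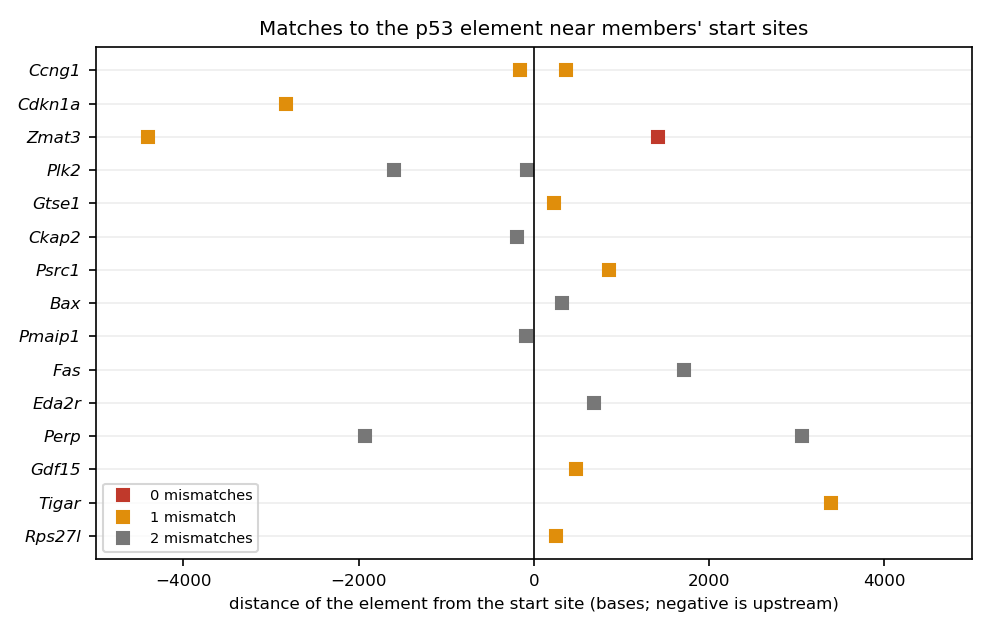
Position of each match to the p53 element (squares, coloured by the number of mismatches) relative to the start site of its gene, in bases, with negative values upstream, for the 15 panel genes with a match. The 1 full match is the *Zmat3* element 1418 bases downstream of its start, and *Ccng1*, *Zmat3*, *Plk2* and *Perp* have a pair of matches each.

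The libraries held between 11221023 and 19652197 estimated counts, and a gene was tested if it had at least 10 counts over all libraries, which 25446 genes did, including all 34 of the panel. Levels are given as CPM, counts scaled to library size with TMM factors, and "called" means an adjusted p under 0.01 with an absolute log2 fold change above 0.58 in edgeR's quasi-likelihood test, adjusted over all genes by Benjamini-Hochberg. The targeted genes were lower in 3xKD than in Neg cells, with log2 fold changes of *Pcx*, *Me1* and *Me2* at −1.14, −0.89 and −0.95 in ESCs and at −1.05, −1.05 and −0.98 in EpiLCs. A list of 12 naive markers summed to between 5723.8 and 5901.5 CPM in Neg ESCs and to between 502.4 and 523.3 in Neg EpiLCs, and a list of 8 formative markers to between 322.1 and 333.6 and between 3149.2 and 3529.9, in the order that the titles give. The median gene of chromosome 16 was 0.30 (log2) higher and that of chromosome Y 2.59 lower in 3xKD than in Neg cells in both states (medians 0.30 and −2.59). No panel gene lies on either, and the medians of the chromosomes that hold the panel lay between −0.05 and 0.06. Whether genes of chromosomes 16 and Y act on the levels of panel genes elsewhere was not tested.

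Per length, the panel covered a wide range, from a mean over all libraries of 0.209 TPM (transcripts scaled by length and library) for *Fas* to 224.7 for *Bax*. *Rps27l* (202.2), *Psrc1* (130.3), *Aen* (102.4) and *Trp53* itself (101.5) came next in that order. *Fas*, the death receptor, had 47 counts in all 12 libraries together and no more than 6 in any, so no change of it was detectable at this depth, and the other genes had means between 7.18 and 434.2 CPM.

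In ESCs, few of these genes differed past the limits between the knockdown line and the Neg line, and none of those was lower in the knockdown line. *Gdf15*, *Fdxr*, *Pmaip1* and *Rrm2b* rose, with log2 fold changes of 1.47, 0.99, 0.68 and 0.63. These were 4 of 34 genes called higher, where 8.50% of all genes tested were, and 0 of 34 called lower, where 6.76% were. The median log2 fold change of the panel was 0.13, against 0.03 over all genes tested. A larger number, 24 of 34, had an adjusted p under 0.01 whatever the size of the change, as did 8048 of the 25446 genes tested. Shares over all genes tested, here and elsewhere, are not matched to the level of the panel genes. Every panel gene but *Fas* averaged at least 7.18 CPM, while 15032 of the 25446 genes averaged 1 CPM or more. With DESeq2 in place of edgeR 0 genes were again called lower, while 11 genes were lower in edgeR at an unadjusted p under 0.05, among them *Ccng1* (−0.54), *Tigar* (−0.50) and *Trp53inp1* (−0.49).

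In EpiLCs much of the panel was at lower levels in the knockdown line than in the Neg line. A total of 13 of 34 genes fell, where 5.35% of all genes tested did, and 4 of 34 rose, where 7.88% did. The genes that fell were *Ccng1* (−1.16), *Ak1* (−1.05), *Pmaip1* (−0.96), *Btg2* (−0.91), *Phlda3* (−0.86), *Trp53inp1* (−0.81), *Plk2* (−0.78), *Perp* (−0.78), *Eda2r* (−0.76), *Cdkn1a* (−0.75), *Mdm2* (−0.64), *Zmat3* (−0.64) and *Ckap2* (−0.58, at the limit). Those that rose were *Fdxr* (1.29), *Gdf15* (1.23), *Ddb2* (1.03) and *Sesn1* (0.92). The panel median was −0.31, against 0.03 over all genes tested.

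By role, the genes that fell in EpiLCs were 3 of 5 for p53 and its feedback, 5 of 7 for arrest and cell cycle, 4 of 11 for apoptosis, 0 of 5 for DNA repair and 1 of 6 for metabolism. The genes that rose were 1 of 5 for DNA repair and 3 of 6 for metabolism, redox and secreted products, with 0 in the other roles. At an unadjusted p under 0.05 in edgeR, 1 repair gene was lower, 1 apoptosis gene was higher, and 0 genes of the feedback and arrest roles were higher, and DESeq2 called 0 in each of these cases. The role medians ran from −0.64 for feedback and for arrest, through −0.36 for apoptosis, to 0.40 for repair and 0.39 for metabolism. The repair median is the value of *Rrm2b*, whose mean TPM went the other way, from 9.95 in Neg EpiLCs to 7.65 in 3xKD EpiLCs. With at most 2 mismatches, 8 of the 13 genes that fell had a match to the p53 element near their start. So did 1 of the 4 that rose, 6 of the 17 not called and 10.6% of all genes scanned. With at most 1 mismatch, the genes with a match were *Ccng1*, *Cdkn1a* and *Zmat3* among those that fell and *Gdf15* among those that rose. *Gtse1*, *Tigar*, *Psrc1* and *Rps27l*, which were not called, also had such a match.

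**Figure D2:**
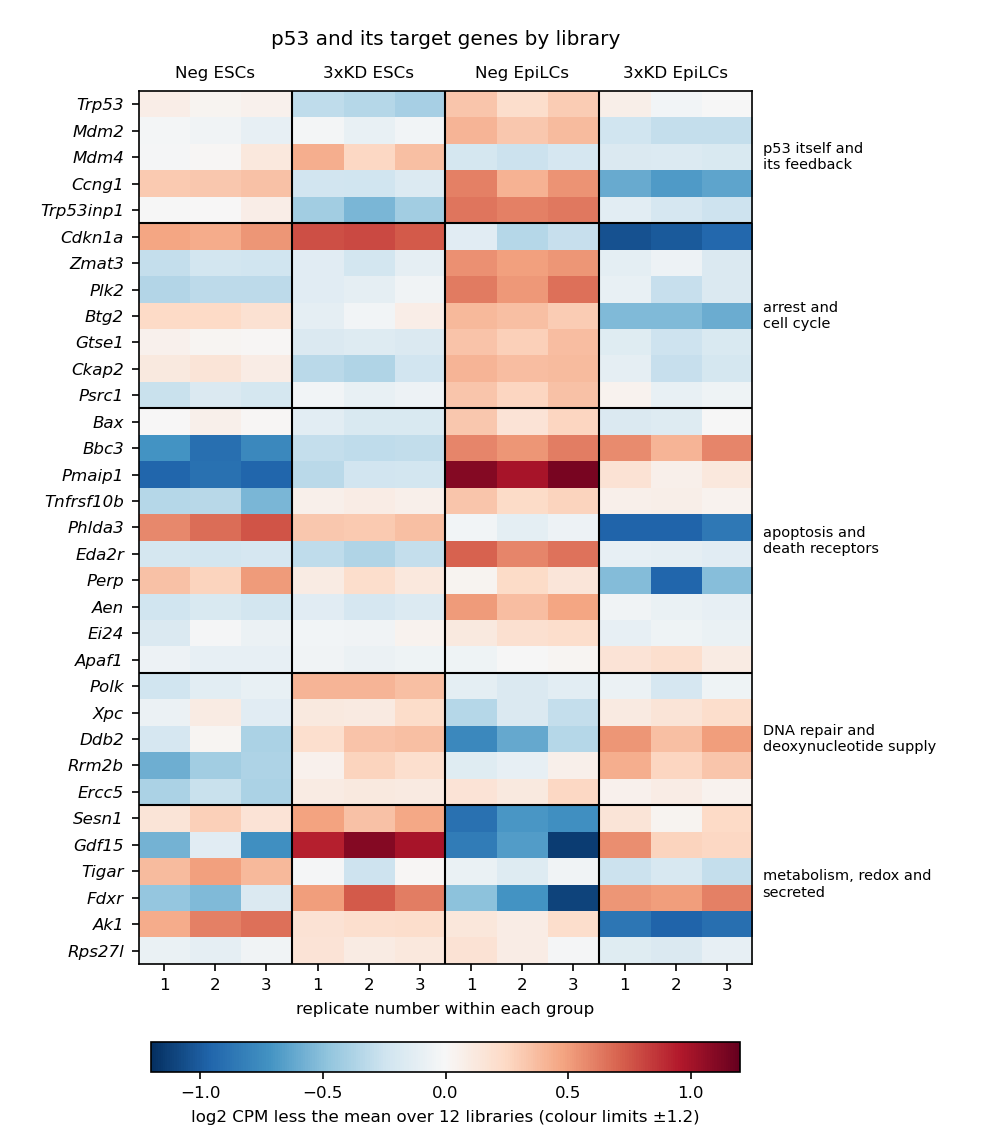
Level of the panel genes (rows, by role; *Fas* is left out for its low count) in each of the 12 libraries (columns, by group and replicate number), as log2 CPM less the mean over the 12 libraries, on a colour scale limited to ±1.2. Most genes of the feedback, arrest and apoptosis roles are red in the 3 Neg EpiLC libraries and pale or blue in the 3xKD EpiLC libraries, with *Cdkn1a*, *Phlda3* and *Ak1* darkest blue there, and *Gdf15* and *Fdxr* are red in both groups of 3xKD libraries.

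Markers of cell state also differed between the lines. In ESCs the naive list went from between 5723.8 and 5901.5 CPM in Neg to between 4325.4 and 4397.2 in 3xKD, with 6 of its 12 genes called lower (list median −0.58), and 3 of the 8 formative genes were called lower and 1 higher. In EpiLCs the formative list summed to between 1778.6 and 1846.0 CPM in 3xKD EpiLCs, with 6 of its 8 genes called lower than in Neg EpiLCs, and the naive list to between 598.3 and 618.0, with 5 of 12 called higher and 1 lower. A list of 9 genes of the 2-cell-like state went from between 546.2 and 603.2 CPM in Neg to between 1274.5 and 1333.9 in 3xKD EpiLCs, with 7 of 9 called higher. The trophoblast list went from between 14.3 and 17.4 CPM in Neg to between 31.5 and 32.5 in 3xKD EpiLCs (3 of 8 called higher, 1 lower), and the neuroectoderm list from between 139.1 and 143.9 to between 74.2 and 76.2 (2 of 8 called lower). The fibroblast list was higher in 3xKD in both states, from between 10.6 and 13.9 to between 31.6 and 32.6 CPM in ESCs and from between 6.76 and 8.32 to between 13.7 and 17.1 in EpiLCs, with *Pdgfrb* (1.75 and 1.57) and *Thy1* (0.85 and 0.77) called higher in each, while *Lum* and *Postn* were at 0 in the 3xKD libraries. Summed levels of the primitive endoderm and mesoderm lists reached at most 35.5 CPM in any library, with 2 of 8 primitive endoderm genes called higher in 3xKD ESCs and 2 called lower in 3xKD EpiLCs. The part of these shifts in the panel's values was not tested, and in bulk RNA fewer cells of a kind and less RNA per cell cannot be told apart.

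**Figure D3:**
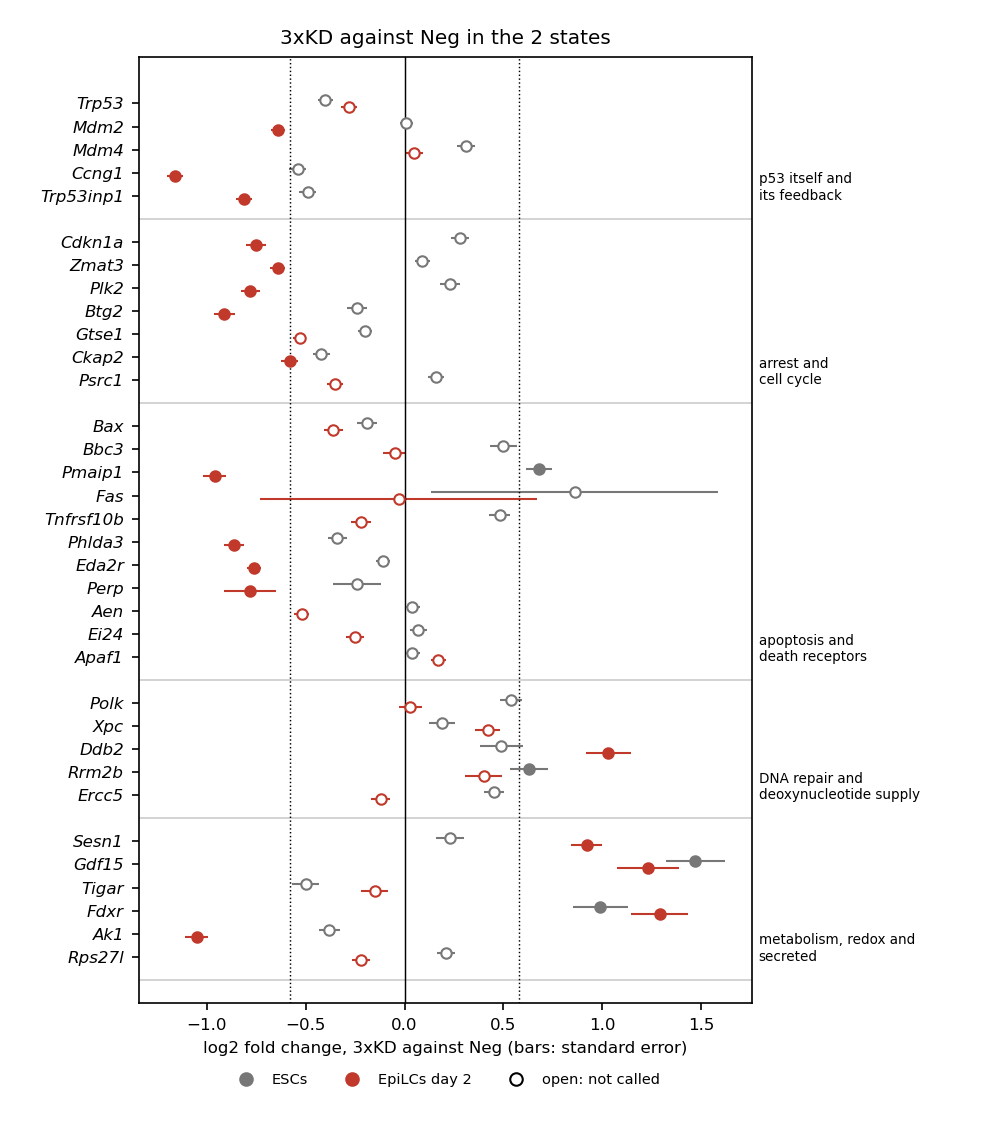
Log2 fold change of 3xKD against Neg for the 34 panel genes by role, in ESCs (grey) and EpiLCs at day 2 (red), with bars of 1 standard error (n = 3 libraries per group), filled points for called genes and dotted lines at the fold limit of 0.58. Red points lie left of the grey ones for 27 of the 34 genes, and the repair and metabolism genes *Ddb2*, *Sesn1*, *Gdf15* and *Fdxr* stand to the right of the limit in EpiLCs.

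*Trp53* itself stood at 247.6, 240.8 and 243.9 CPM in Neg ESCs and at 190.1, 185.0 and 178.1 in 3xKD ESCs, then at 296.8, 272.4 and 290.5 in Neg EpiLCs and at 246.7, 229.4 and 234.0 in 3xKD EpiLCs. The 3xKD libraries were all below the Neg libraries of their state, by 1.32-fold in ESCs (log2 fold change −0.40 ± 0.0393 SE, adjusted p = 3.2e-07) and by 1.21-fold in EpiLCs (−0.28 ± 0.0388 SE, adjusted p = 2.1e-05), both under the fold limit and not called. The difference between the states was 0.13 (SE 0.0551, adjusted p = 0.14).

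*Mdm2*, the ligase that removes p53, showed no such drop in ESCs, at 164.7, 162.3 and 155.7 CPM in Neg and 164.1, 157.2 and 163.7 in 3xKD. In EpiLCs it stood at 222.4, 209.7 and 217.7 CPM in Neg and fell to 142.1, 137.1 and 137.5 in 3xKD (log2 fold change −0.64 ± 0.0351 SE, adjusted p = 4.7e-10). The groups overlapped in ESCs and were apart in EpiLCs, and the effects differed by −0.65 between the states (SE 0.0497, adjusted p = 1.5e-07). *Mdm4*, the relative of Mdm2 that blocks p53 without being a ligase for it, had 202.3, 206.6 and 222.6 CPM in Neg ESCs, 277.0, 242.8 and 262.7 in 3xKD ESCs, 176.8, 171.3 and 177.4 in Neg EpiLCs and 181.1, 182.5 and 179.9 in 3xKD EpiLCs. It was called in neither state (0.31 and 0.05), and its difference between states of −0.26 lay at the limit (adjusted p = 0.0095). That call was lost without Neg ESCs replicate 1 or 2, 3xKD ESCs replicate 1 or 3, Neg EpiLCs replicate 1 or 3, or any 1 of the 3xKD EpiLC libraries, at between −0.23 and −0.28. In edgeR with RLE factors or with the filterByExpr filter it was lost as well (−0.25 and −0.24, adjusted p = 0.011 in each).

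*Ccng1* encodes cyclin G1, which brings a phosphatase to Mdm2, and its change in EpiLCs was the largest decrease of the panel. It had 358.3, 362.6 and 368.2 CPM in Neg ESCs and 246.2, 245.7 and 258.3 in 3xKD ESCs. In EpiLCs it had 438.3, 385.5 and 420.6 CPM in Neg and 190.3, 180.1 and 186.9 in 3xKD. The decrease was 2.23-fold in EpiLCs (−1.16 ± 0.0428 SE, adjusted p = 7.3e-12), and the ESC value of −0.54 ± 0.0422 SE stayed just inside the fold limit, with groups apart in both states. *Trp53inp1*, a cofactor that helps p53 to its phosphorylated form, had 416.8, 417.7 and 441.9 CPM in Neg ESCs, 312.5, 284.7 and 312.0 in 3xKD ESCs, 650.0, 632.5 and 645.2 in Neg EpiLCs and 381.4, 363.5 and 351.9 in 3xKD EpiLCs. It followed the same order, with log2 fold changes of −0.49 ± 0.0417 SE in ESCs (not called) and −0.81 ± 0.0415 SE in EpiLCs (adjusted p = 2.0e-10).

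**Figure D4:**
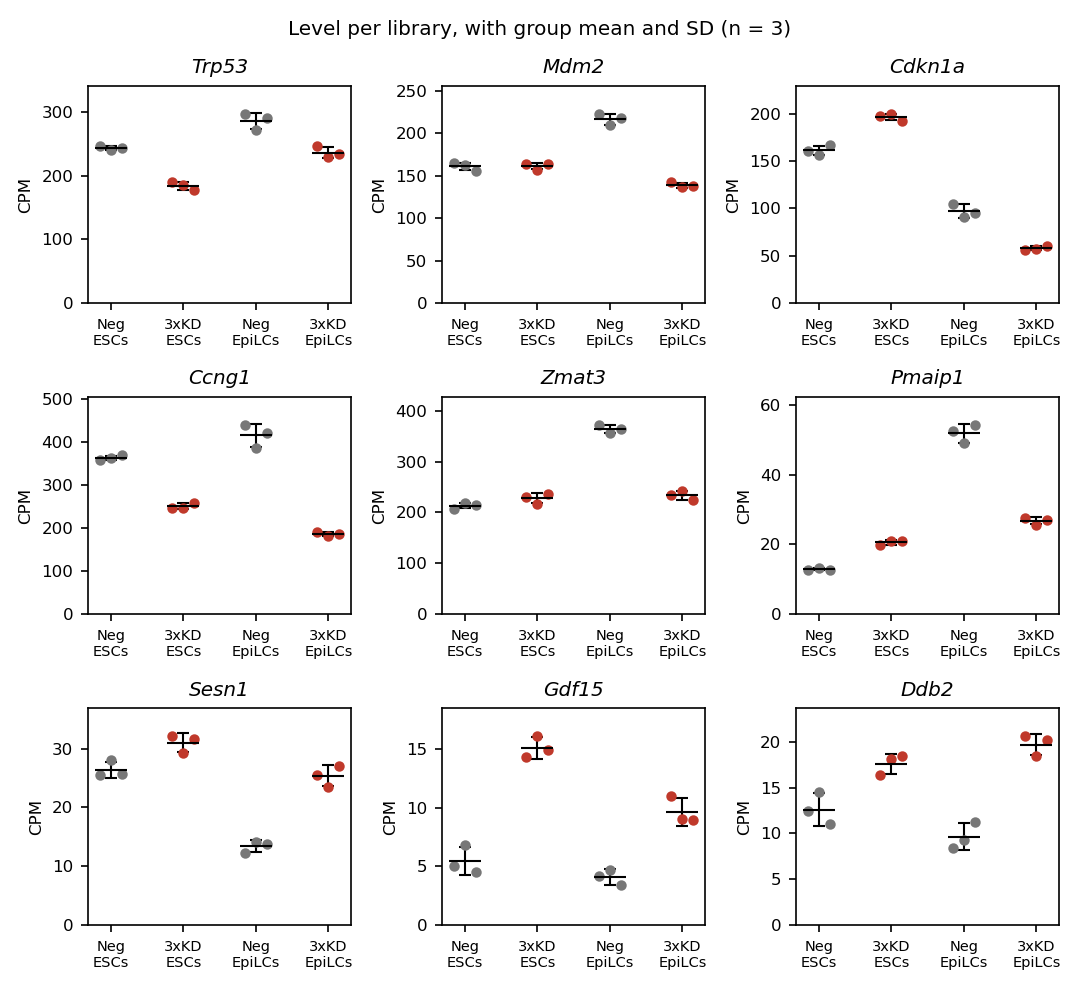
Level in CPM of 9 panel genes in every library (points; grey Neg, red 3xKD) with the mean (horizontal mark) and SD (bar) of each group of 3, on axes that start at 0. *Mdm2*, *Ccng1*, *Zmat3* and *Pmaip1* are highest in Neg EpiLCs, *Cdkn1a* is highest in 3xKD ESCs and lowest in 3xKD EpiLCs, and *Sesn1*, *Gdf15* and *Ddb2* are lowest in Neg EpiLCs.

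*Cdkn1a* encodes p21, the inhibitor of cyclin-dependent kinases through which p53 stops the cell cycle, and its 3xKD libraries stood on opposite sides of Neg in the 2 states. It had 160.3, 156.7 and 166.6 CPM in Neg ESCs against 197.2, 199.4 and 192.6 in 3xKD ESCs, a log2 fold change of 0.28 ± 0.046 SE (adjusted p = 8.4e-05, under the fold limit). In EpiLCs it had 105.1, 90.7 and 95.3 CPM in Neg and 55.7, 57.4 and 59.9 in 3xKD, a 1.68-fold decrease (−0.75 ± 0.0497 SE, adjusted p = 4.0e-09). All 3 libraries were above the Neg ones in ESCs and all 3 below them in EpiLCs, and the difference of −1.03 between the states passed its test (SE 0.0678, adjusted p = 2.4e-08).

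*Plk2*, a polo-like kinase of centriole duplication, shared that shape. Its levels were 71.3, 73.1 and 73.0 CPM in Neg ESCs, 82.8, 84.5 and 88.3 in 3xKD ESCs, 139.8, 130.6 and 143.7 in Neg EpiLCs and 85.4, 75.0 and 80.4 in 3xKD EpiLCs. The log2 fold change was 0.23 ± 0.0494 SE in ESCs (not called) and −0.78 ± 0.0481 SE in EpiLCs (adjusted p = 1.7e-09). *Zmat3*, an RNA-binding zinc finger protein and the carrier of the full p53 element printed above, had 207.3, 218.2 and 214.5 CPM in Neg ESCs, 230.6, 216.9 and 235.7 in 3xKD ESCs, 371.3, 355.3 and 364.7 in Neg EpiLCs and 234.1, 242.2 and 224.8 in 3xKD EpiLCs. The ESC groups overlapped (0.09 ± 0.0386 SE) and the EpiLC groups were apart (−0.64 ± 0.0382 SE, adjusted p = 1.2e-09), a call that offsets for transcript length took just inside the limit, at −0.55.

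*Btg2*, an antiproliferative factor that recruits the deadenylase complex to mRNA, was at 57.7, 57.7 and 55.6 CPM in Neg ESCs, 45.3, 47.7 and 51.7 in 3xKD ESCs, 64.2, 62.9 and 60.5 in Neg EpiLCs and 33.8, 33.9 and 32.3 in 3xKD EpiLCs. It was below Neg in both states and called in EpiLCs (−0.91 ± 0.0515 SE, adjusted p = 6.8e-10; −0.24 in ESCs). The remaining genes of this role act on the mitotic spindle and its microtubules. *Ckap2* had 115.8, 118.5 and 113.3 CPM in Neg ESCs, 85.5, 83.2 and 91.0 in 3xKD ESCs, 141.3, 137.8 and 139.1 in Neg EpiLCs and 99.0, 87.9 and 92.5 in 3xKD EpiLCs. Its EpiLC call lay at the limit (−0.58 ± 0.0442 SE) and was lost under other scalings, filters and DESeq2 (between −0.52 and −0.57) and without Neg EpiLCs replicate 1, 3xKD EpiLCs replicate 2 or 3, or 3xKD ESCs replicate 1 (between −0.54 and −0.58). Neither *Gtse1* nor *Psrc1* was called in either state. *Gtse1* had 240.1, 236.2 and 233.6 CPM in Neg ESCs, 205.5, 208.6 and 205.4 in 3xKD ESCs, 293.2, 283.4 and 299.8 in Neg EpiLCs and 209.7, 195.3 and 203.7 in 3xKD EpiLCs (−0.20 and −0.53). *Psrc1* had 154.9, 165.7 and 161.5, then 183.3, 175.3 and 179.1, then 236.1, 223.6 and 238.4, then 192.1, 175.8 and 180.0 CPM in the same order of groups (0.16 and −0.35). In both, Neg EpiLCs were the highest of the 4 groups, and both differences between states passed the test (−0.33 and −0.51).

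Among the apoptosis genes, *Pmaip1*, which encodes the BH3-only protein Noxa, gave the largest difference between the states in the panel. It had 12.7, 13.2 and 12.7 CPM in Neg ESCs and rose to 19.7, 21.0 and 21.1 in 3xKD ESCs (1.60-fold, log2 fold change 0.68 ± 0.0646 SE, adjusted p = 2.5e-07). In EpiLCs it had 52.7, 49.0 and 54.2 CPM in Neg and fell to 27.7, 25.7 and 26.9 in 3xKD (1.94-fold, −0.96 ± 0.0565 SE, adjusted p = 1.1e-09). It was called in opposite directions in the 2 states, with no overlap of groups in either, and the difference of −1.63 passed its test (SE 0.0857, adjusted p = 2.1e-09).

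*Bbc3* encodes Puma, the other BH3-only protein of the panel, and did not follow *Pmaip1* in EpiLCs. Its levels were 17.6, 15.4 and 16.9 CPM in Neg ESCs, 23.7, 23.4 and 23.5 in 3xKD ESCs, 43.3, 41.7 and 44.1 in Neg EpiLCs and 42.8, 38.3 and 43.5 in 3xKD EpiLCs. The ESC groups were apart, under the fold limit (0.50 ± 0.0663 SE, and 0.69 and called with offsets for transcript length), whereas the EpiLC groups overlapped (−0.05 ± 0.0588 SE, adjusted p = 0.55). *Tnfrsf10b*, the death receptor for TRAIL, had 50.3, 50.4 and 43.6 CPM in Neg ESCs, 66.3, 67.7 and 66.2 in 3xKD ESCs, 80.0, 74.8 and 76.5 in Neg EpiLCs and 66.3, 66.9 and 65.7 in 3xKD EpiLCs. It was called in neither state (0.48 and −0.22) although the groups were apart in both, in opposite directions, and the difference of −0.70 passed its test (adjusted p = 4.3e-06).

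A further 3 genes of this role fell in 3xKD EpiLCs and were not called in ESCs. *Eda2r*, a receptor of the tumour necrosis factor family, had 142.7, 142.0 and 143.7 CPM in Neg ESCs, 133.9, 128.6 and 135.5 in 3xKD ESCs, 270.0, 249.3 and 259.7 in Neg EpiLCs and 154.8, 153.8 and 150.7 in 3xKD EpiLCs (−0.76 ± 0.0346 SE in EpiLCs, adjusted p = 5.6e-11). *Phlda3*, which keeps the kinase Akt off the membrane, had 92.3, 98.3 and 104.0 CPM in Neg ESCs, 77.4, 76.7 and 79.1 in 3xKD ESCs, 60.4, 56.8 and 59.0 in Neg EpiLCs and 31.6, 31.6 and 34 in 3xKD EpiLCs (−0.86 ± 0.051 SE, adjusted p = 1.2e-09). Both were apart in EpiLCs, and both gave a difference between states (−0.66 and −0.52). *Perp*, a membrane protein of desmosomes, was low, at 8.86, 8.33 and 9.84 CPM in Neg ESCs, 7.43, 7.99 and 7.58 in 3xKD ESCs, 7.08, 8.12 and 7.65 in Neg EpiLCs and 4.84, 3.58 and 4.87 in 3xKD EpiLCs. It fell in EpiLCs (−0.78 ± 0.13 SE, adjusted p = 1.2e-04), and its difference between states missed the limit (−0.54 ± 0.178 SE, adjusted p = 0.049).

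*Aen*, a nuclease that cuts DNA and RNA during apoptosis, had 204.1, 211.9 and 206.4 CPM in Neg ESCs, 217.9, 209.3 and 214.1 in 3xKD ESCs, 341.8, 310.2 and 334.1 in Neg EpiLCs and 233.0, 227.6 and 225.0 in 3xKD EpiLCs. *Ei24*, a protein of the endoplasmic reticulum, had 76.6, 85.6 and 82.6, then 84.5, 84.3 and 89.0, then 93.7, 98.8 and 100.5, then 81.0, 83.6 and 81.8 CPM in that order. For both, the ESC groups overlapped (0.04 and 0.07) and 3xKD lay below Neg in EpiLCs without reaching the fold limit (−0.52 and −0.25). *Bax*, a pore-forming protein that acts downstream of the BH3-only proteins, ranged from 100.5 to 143.0 CPM over all libraries. Its log2 fold changes were −0.19 in ESCs and −0.36 in EpiLCs. *Apaf1*, the scaffold of the apoptosome, ranged from 69.4 to 85.7 CPM, with 0.04 and 0.17. Neither was called, and neither differed between the states at the limit used (−0.17 and 0.13, adjusted p = 0.11 and 0.12).

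No repair gene was called lower in either state. *Ddb2*, which finds ultraviolet lesions in DNA, had 12.4, 14.5 and 11.0 CPM in Neg ESCs, 16.4, 18.1 and 18.4 in 3xKD ESCs, 8.38, 9.33 and 11.3 in Neg EpiLCs and 20.6, 18.4 and 20.2 in 3xKD EpiLCs. It rose 2.04-fold in EpiLCs (1.03 ± 0.113 SE, adjusted p = 1.3e-06), and the ESC value of 0.49 ± 0.111 SE was under the fold limit, though called at 0.60 without Neg ESCs replicate 2. The 3xKD libraries were above the Neg ones in both states. *Rrm2b*, the p53-controlled subunit of ribonucleotide reductase, had 7.89, 8.88 and 9.18 CPM in Neg ESCs, 12.3, 14.3 and 13.6 in 3xKD ESCs, 10.7, 11.1 and 12.4 in Neg EpiLCs and 16.0, 14.2 and 14.9 in 3xKD EpiLCs. It rose in ESCs (0.63 ± 0.0957 SE, adjusted p = 4.8e-05) and stayed under the limit in EpiLCs (0.40 ± 0.0919 SE). The ESC call was lost without Neg ESCs replicate 1 (0.57), without 3xKD ESCs replicate 2 (0.58), with transcript-length offsets (0.33) and with the chromosome median subtracted (0.56). In EpiLCs the mean TPM of *Rrm2b* was 9.95 in Neg and 7.65 in 3xKD, against the direction of its CPM, so the sign there depends on transcript length.

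*Polk*, a polymerase that copies past lesions, had 27.0, 29.2 and 29.9 CPM in Neg ESCs, 42.3, 42.3 and 41.0 in 3xKD ESCs, 29.3, 28.3 and 29.2 in Neg EpiLCs and 30.3, 27.7 and 30.8 in 3xKD EpiLCs. *Ercc5*, the nuclease that cuts on the 3′ side of a lesion, had 32.4, 35.2 and 32.5, then 45.3, 45.8 and 45.6, then 47.4, 45.8 and 50.2, then 43.8, 44.9 and 43.5 CPM in that order. Both stood apart from Neg in ESCs, under the fold limit (0.54 and 0.45), were near 0 in EpiLCs (0.03 and −0.12), and differed between the states (−0.51 and −0.57, adjusted p = 2.6e-04 and 2.5e-05). With transcript-length offsets *Polk* was called in ESCs (0.71), and its difference between states was lost (−0.34). *Xpc*, the other lesion sensor, ranged from 29.0 to 43.0 CPM, with log2 fold changes of 0.19 in ESCs and 0.42 in EpiLCs, neither called.

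*Gdf15*, a secreted hormone of cell stress, and *Fdxr*, the reductase that feeds electrons to mitochondrial ferredoxin, were the genes of the panel that rose in both states. *Gdf15* had 5.05, 6.81 and 4.49 CPM in Neg ESCs, 14.3, 16.1 and 14.9 in 3xKD ESCs, 4.19, 4.70 and 3.41 in Neg EpiLCs and 11.0, 9.02 and 8.93 in 3xKD EpiLCs, a 2.78-fold rise in ESCs (1.47 ± 0.147 SE, adjusted p = 4.2e-07) and 2.35-fold in EpiLCs (1.23 ± 0.155 SE, adjusted p = 6.3e-06). *Fdxr* had 4.96, 4.75 and 6.07 CPM in Neg ESCs, 9.71, 11.4 and 10.5 in 3xKD ESCs, 4.87, 4.16 and 3.16 in Neg EpiLCs and 9.87, 9.72 and 10.4 in 3xKD EpiLCs, a rise of 1.98-fold in ESCs (0.99 ± 0.139 SE, adjusted p = 2.1e-05) and 2.45-fold in EpiLCs (1.29 ± 0.143 SE, adjusted p = 1.5e-06). Every 3xKD library was above every Neg library for both genes, and neither difference between states passed the test (−0.24 ± 0.215 SE and 0.31 ± 0.201 SE).

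*Sesn1*, a sestrin that restrains mTORC1 when leucine is short, rose in EpiLCs. It had 25.6, 28.0 and 25.7 CPM in Neg ESCs, 32.1, 29.2 and 31.7 in 3xKD ESCs, 12.3, 14.1 and 13.8 in Neg EpiLCs and 25.6, 23.5 and 27.1 in 3xKD EpiLCs. The rise was 1.90-fold in EpiLCs (0.92 ± 0.0765 SE, adjusted p = 5.2e-08), with 0.23 ± 0.0713 SE in ESCs, and its difference of 0.70 (adjusted p = 1.7e-04) was lost with transcript-length offsets (0.56, adjusted p = 0.027). *Ak1*, an adenylate kinase, went the other way, at 65.8, 73.6 and 76.5 CPM in Neg ESCs, 54.6, 55.8 and 55.9 in 3xKD ESCs, 53.2, 51.5 and 55.9 in Neg EpiLCs and 26.6, 24.9 and 25.9 in 3xKD EpiLCs. Its decrease was 2.08-fold in EpiLCs (−1.05 ± 0.0577 SE, adjusted p = 4.7e-10) and under the limit in ESCs (−0.38 ± 0.0536 SE), without overlap in either state.

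*Tigar*, a phosphatase that turns glucose carbon toward the pentose phosphate pathway, ranged from 42.1 to 45.6 CPM in Neg ESCs, 27.2 to 32.7 in 3xKD ESCs, 29.1 to 31.4 in Neg EpiLCs and 26.5 to 28.3 in 3xKD EpiLCs. Its log2 fold changes of −0.50 and −0.15 were not called. *Rps27l*, a relative of a ribosomal protein, had 74.5, 73.0 and 76.5 CPM in Neg ESCs, 88.2, 84.4 and 86.2 in 3xKD ESCs, 88.6, 83.7 and 77.9 in Neg EpiLCs and 71.3, 69.9 and 73.6 in 3xKD EpiLCs. It was above Neg in ESCs (0.21) and below it in EpiLCs (−0.22), neither called, and the difference of −0.43 passed its test (adjusted p = 1.8e-04).

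Taking the test of the difference itself, the 3xKD effect was lower in EpiLCs than in ESCs for 21 of 34 genes at an adjusted p under 0.01, where 5.27% of all genes tested were, and higher for 1 of 34, *Sesn1*, where 4.76% were. These were 4 of 5 feedback genes, 6 of 7 arrest genes, 7 of 11 apoptosis genes, 2 of 5 repair genes and 2 of 6 metabolism genes on the lower side. Without regard to the test, 27 of 34 genes had a lower effect in EpiLCs, against 51.2% of the 15032 genes that averaged 1 CPM or more. The effects in the 2 states rose together across the 34 genes (Pearson's r = 0.674, Spearman's rho = 0.615), a description over genes that were measured in the same 12 libraries and are not independent of each other.

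The passage from ESCs to EpiLCs was compared within each line to place these values, and it uses the same libraries as the comparisons above. In Neg cells 8 of 34 genes rose, where 9.78% of all genes tested did, and 3 of 34 fell, where 11.0% did. *Pmaip1* rose 4.04-fold (2.01 ± 0.0614 SE, adjusted p = 6.3e-14) and *Bbc3* 2.59-fold (1.37 ± 0.064 SE, adjusted p = 1.6e-11), followed by *Plk2* (0.93), *Eda2r* (0.86), *Zmat3* (0.77), *Tnfrsf10b* (0.69), *Aen* (0.66) and *Trp53inp1* (0.59). *Sesn1* (−0.98), *Phlda3* (−0.74) and *Cdkn1a* (−0.73) fell. Of the 8 genes that rose, 5 were apoptosis genes, a role that holds 11 of the 34 genes, and *Phlda3*, which fell, is of that role too. In the arrest role 2 of 7 genes rose and 1, *Cdkn1a*, fell, and 6 of the 7 had a log2 fold change above 0. The *Trp53inp1* call was lost without Neg ESCs replicate 1 (0.58) and with transcript-length offsets (0.55).

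In 3xKD cells 1 of 34 genes rose between the same states, where 9.42% of all genes tested did, and 5 of 34 fell, where 9.32% did. *Bbc3* rose (0.82 ± 0.0613 SE, adjusted p = 9.5e-09), and *Cdkn1a* (−1.77 ± 0.049 SE, 3.40-fold, adjusted p = 3.0e-14), *Phlda3* (−1.26), *Ak1* (−1.10), *Perp* (−0.79) and *Gdf15* (−0.64) fell. *Pmaip1* had 0.38 ± 0.0597 SE here against its 2.01 in Neg cells, and *Plk2*, *Zmat3*, *Tnfrsf10b* and *Aen* lay between −0.08 and 0.10. *Trp53* itself stood higher in EpiLCs in either line, at 0.23 ± 0.0388 SE in Neg and 0.36 ± 0.0392 SE in 3xKD cells, both under the fold limit. The test of whether the state change differs between the lines is the same as that of the difference between states given above.

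**Figure D5:**
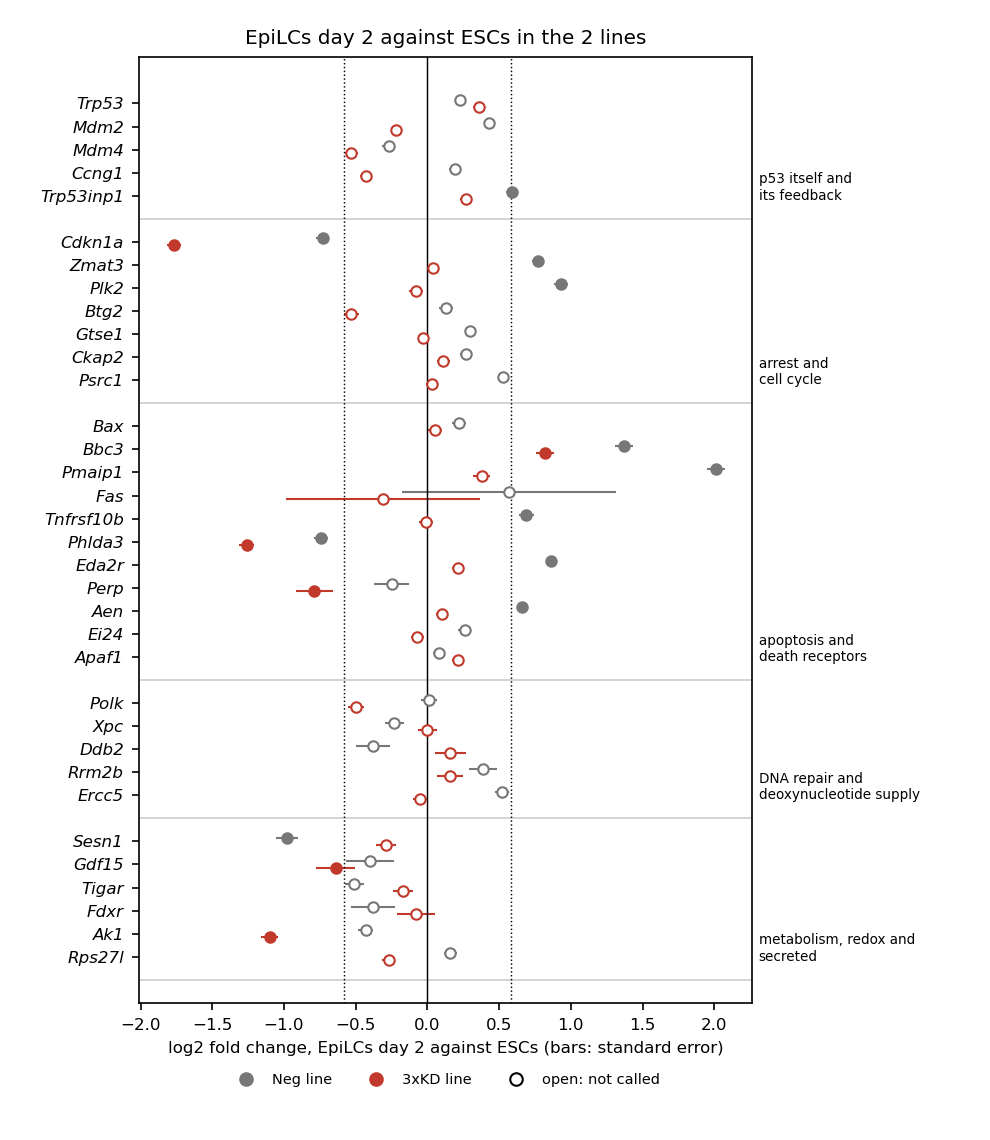
Log2 fold change of EpiLCs at day 2 against ESCs for the 34 panel genes by role, in the Neg line (grey) and the 3xKD line (red), with bars of 1 standard error (n = 3 libraries per group), filled points for called genes and dotted lines at the fold limit of 0.58. In the Neg line 8 genes lie right of the limit, led by *Pmaip1* and *Bbc3*, and in the 3xKD line *Bbc3* alone does, while *Cdkn1a* and *Phlda3* lie left of it in both.

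Of 32 regulators of p53 (kinases, acetyltransferases, ubiquitin ligases and ribosomal proteins that bind Mdm2), 1 rose and 1 fell in 3xKD ESCs, and 0 rose and 2 fell in 3xKD EpiLCs (in edgeR at an unadjusted p under 0.05, 4 were higher there, and DESeq2 called 0 higher). Of all genes tested, 8.50% rose and 6.76% fell in ESCs, and 7.88% rose and 5.35% fell in EpiLCs. *Ppp1r13l*, the inhibitory member of the ASPP family, rose in ESCs (1.12 ± 0.0693 SE, adjusted p = 1.6e-09), and *Sirt1*, a deacetylase of p53, fell there (−1.0 ± 0.0438 SE, adjusted p = 3.5e-11). In EpiLCs the genes that fell were *Trp73*, which encodes the relative p73 (−0.99 ± 0.0767 SE, adjusted p = 2.4e-08), and *Daxx*, a histone chaperone that binds Mdm2 (−0.63 ± 0.0436 SE, adjusted p = 6.7e-09). The list medians were −0.02 and −0.14. The 3xKD effect differed between the states for 9 of the 32 regulators, lower in EpiLCs for 7, where 5.27% of all genes tested were, and higher for 2, where 4.76% were. *Setd7*, a lysine methyltransferase (−0.67 ± 0.0689 SE), *Ppp1r13l* (−0.62 ± 0.101 SE) and *Sirt1* (0.53 ± 0.0612 SE) differed most. From ESCs to EpiLCs, 6 of 32 rose and 0 fell in Neg cells, where 9.78% and 11.0% of all genes tested did. In 3xKD cells 3 rose and 2 fell, where 9.42% and 9.32% did.

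In a wider list of 63 other genes known as p53 targets in some tissue, more were called higher than lower in 3xKD cells. This held in both states, as it did over all genes tested. In ESCs 15 of 63 rose, where 8.50% of all genes tested did, and 7 fell, where 6.76% did. The median was 0.16, and *Sp5* (−2.48 ± 0.139 SE), *Tap1* (2.02 ± 0.104 SE) and *Nupr1* (1.99 ± 0.105 SE) changed most. In EpiLCs 12 of 63 rose, where 7.88% of all genes tested did, and 6 fell, where 5.35% did. The median was 0.12, and *Nupr1* (2.20 ± 0.109 SE), *Ier3* (2.05 ± 0.143 SE) and *Pltp* (1.93 ± 0.141 SE) changed most. Many of these genes answer to other factors as well, *Sp5* to Wnt signalling and *Nupr1* to the amino acid response. The effect in EpiLCs was lower than in ESCs at an adjusted p under 0.01 for 16 of the 63 genes and higher for 5. Over all genes tested 5.27% were lower and 4.76% higher. Of 20 G2/M genes that p53 is known to lower through p21 and the DREAM complex, *Kif23* rose in both states (0.66 and 0.60) and 0 fell in either by edgeR or by DESeq2, with 1 lower at an unadjusted p under 0.05 in each state. The medians were 0.24 in ESCs and 0.10 in EpiLCs. With no fold limit, 13 of the 20 passed the adjusted p in ESCs and 9 did in EpiLCs. Of the 25446 genes tested, 8048 and 7610 did so. The log2 fold change was above 0 for 19 of the 20 in ESCs and for 15 in EpiLCs. Over all 25446 genes tested it was above 0 for 13097 and 13165. The effect in EpiLCs was lower than in ESCs at an adjusted p under 0.01 for 4 of the 20 and higher for 0.

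Within genes, the authors' transcript estimates moved for several panel genes, among them *Sesn1*, *Trp53inp1* and *Mdm4*. The longer *Sesn1* gene model (ENSMUST00000099931, start at position 41685931 of chromosome 10) took between 54.4% and 64.5% of the gene's TPM in Neg ESCs and between 28.3% and 30.3% in 3xKD ESCs, and the shorter one (ENSMUST00000041438, start at 41763435) went from a mean of 2.15 to 4.69 TPM in ESCs and from 2.39 to 4.89 in EpiLCs. The longer one went from 3.26 to 1.93 TPM in ESCs and from 1.26 to 1.50 in EpiLCs, so that the higher *Sesn1* level of 3xKD cells lay mainly in the transcript from the inner start. For *Trp53inp1*, a transcript without a defined coding sequence (ENSMUST00000132010) held between 20.3% and 20.8% in Neg ESCs and between 7.86% and 9.38% in 3xKD ESCs, while the main coding transcript (ENSMUST00000029865) went from a mean of 38.0 to 29.3 TPM in ESCs and from 73.6 to 41.6 in EpiLCs. For *Mdm4*, a retained-intron transcript (ENSMUST00000189596) held between 15.8% and 19.0% in Neg ESCs and between 24.6% and 29.3% in 3xKD ESCs. Its mean went from 6.39 to 12.3 TPM in ESCs, and that of the main coding transcript (ENSMUST00000188090) from 16.4 to 18.3. In EpiLCs the retained-intron share was between 18.3% and 20.2% in Neg and between 25.2% and 26.9% in 3xKD. All these shares are estimates from single-end reads and were not tested. For *Trp53* they were unstable, with ENSMUST00000108658 between 4.07% and 80.6% among the 3 Neg ESC libraries, so no isoform of p53 was compared, and the main *Mdm2* transcript stayed between 42.5% and 53.5% in every library.

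Some panel genes share their locus with another gene. *Trp53* lies against *Wrap53*, *Ccng1* against *Nudcd2*, *Sesn1* against *Cep57l1*, *Polk* against *Cert1* and *Ddb2* against *Acp2*, each on the opposite strand, and the libraries were directional, but the strand setting of the counting is not given in the sources used here. *Bax* overlaps the read-through gene model *Gm45808* on its own strand, which took 245 counts in all libraries together, and *Trp53* and *Mdm4* have processed copies with 208 and 35 counts. *Rrm2b*, with 2296 counts in all libraries together, overlaps the processed pseudogene *Gm3362* on its own strand, which took 100.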

How the data were processed

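RNA-seq of 12 libraries (4 groups of 3) was analysed from the deposited tables. Per the study's methods and the submitters' processing notes, the authors trimmed single-end reads from directional, ribosomal RNA-depleted libraries with Trim Galore 0.6.7 (the molecule field of the labels gives polyadenylated RNA), aligned them to GRCm39 with STAR 2.7.9a, and quantified transcripts with Salmon 1.10.1. The deposited tables give the authors' estimated counts, not normalized, and the authors' TPM, scaled by transcript length and library total. Columns of other samples numbered 0.

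Estimated counts were summed over the transcripts of a gene and rounded to whole numbers. Of 57180 genes, the 25446 that reached 10 counts over all libraries were scaled by TMM and fitted with edgeR 4.0.16 (quasi-likelihood test, R 4.3.3), with all 12 libraries in 1 model of 4 groups, which share 1 estimate of the spread. A gene was called at an adjusted p (Benjamini-Hochberg, all genes) under 0.01 with a log2 fold change beyond ±0.58, and the difference between states used the adjusted p alone. The standard error (SE) is the size of the log2 fold change divided by the square root of F. TPM served for levels between genes and for transcript shares. The panel and the gene lists were chosen with earlier results of these data known. All 34 genes are named, with values in every library for *Trp53*, *Mdm2*, *Mdm4*, *Cdkn1a* and each gene called in 3xKD against Neg or in the difference between states. For other lists the 3 largest called changes are named, apart from *Kif23*, *Sirt1* and others that were the only calls of their list.

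The reference in use was GRCm39 with GENCODE vM39, whose annotation held 99.0% of the deposited gene identifiers and all 34 panel genes. Elements were read from it at the Ensembl canonical start of each gene, and the element of *Pmaip1* is not printed. Depth lay between 11221023 and 19652197 counts per library, and counting error is included in the spread that edgeR fits. The alternatives were RLE and upper-quartile factors, no filter or filterByExpr, a block for the replicate number, offsets for transcript length, only the groups compared, DESeq2 1.42.0, a limit of 0.05 on the adjusted p with none on the fold, subtraction of each chromosome's median, and each library left out in turn. The model was tested on simulated data before use.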

Additional observations from a re-analysis of the deposited data

Results flagged for a closer look

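The effect of 3xKD against Neg differed between ESCs and EpiLCs, by edgeR's quasi-likelihood test of the difference itself with an adjusted p under 0.01 over all genes, for 22 of the 34 panel genes. Among the feedback genes the EpiLC effect less the ESC effect, on the log2 scale, was −0.65 for *Mdm2*, −0.62 for *Ccng1*, −0.32 for *Trp53inp1* and −0.26 for *Mdm4*. Among the arrest and cell cycle genes it was −1.03 for *Cdkn1a*, −1.01 for *Plk2*, −0.73 for *Zmat3*, −0.67 for *Btg2*, −0.51 for *Psrc1* and −0.33 for *Gtse1*. For apoptosis genes the difference came to −1.63 for *Pmaip1*, −0.70 for *Tnfrsf10b*, −0.66 for *Eda2r*, −0.57 for *Aen*, −0.55 for *Bbc3*, −0.52 for *Phlda3* and −0.32 for *Ei24*. For repair genes it was −0.57 for *Ercc5* and −0.51 for *Polk*. In the metabolism role it was −0.67 for *Ak1*, −0.43 for *Rps27l* and 0.70 for *Sesn1*. Of these genes *Pmaip1* was the 1 called in both states, in opposite directions, at 0.68 in ESCs and −0.96 in EpiLCs. For *Cdkn1a*, *Plk2*, *Tnfrsf10b*, *Rps27l*, *Psrc1* and *Ercc5* the 3xKD libraries were all above Neg in ESCs and all below Neg in EpiLCs. *Sesn1* was the 1 gene whose effect was higher in EpiLCs. Within the groups of 3 libraries no test for a library that stands apart was made.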

How the results depend on the processing

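Of 60 calls of panel genes over the 5 comparisons, 48 were kept under every alternative that used the same limits, 12 were lost under at least 1, and 0 reversed. A limit of 0.05 on the adjusted p, with none on the fold, gave 16 genes higher and 11 lower in 3xKD against Neg ESCs, 7 higher and 21 lower in EpiLCs, 20 higher and 8 lower for Neg EpiLCs against Neg ESCs, and 7 higher and 12 lower for 3xKD EpiLCs against 3xKD ESCs. The share of all genes that pass this wider limit was not counted. The number of genes with a higher effect in EpiLCs than in ESCs, 1 as reported, was 3 without a filter (with *Ddb2* and *Tigar*) and 0 with transcript-length offsets, and between 1 and 2 when leaving out single libraries (2 with *Ddb2*, without Neg EpiLCs replicate 3). With each library left out, the genes higher and lower were 3 to 5 and 0 in ESCs, 4 and 12 to 13 in EpiLCs, and 20 to 21 genes had a lower effect in EpiLCs. Transcript-length offsets lowered that last count to 16 from 21, losing *Trp53inp1*, *Bbc3*, *Phlda3*, *Ei24* and *Polk*, and the *Gdf15* call for 3xKD EpiLCs against 3xKD ESCs, which upper-quartile factors also lost (−0.57). The cause was not tested. The replicate numbers did not pair the libraries, since deviations of same-numbered libraries correlated at between −0.135 and 0.0999. With the replicate block the higher and lower calls stayed 4 and 0 in ESCs and 4 and 13 in EpiLCs, and 20 genes in place of 21 had a lower effect in EpiLCs, *Mdm4* being lost at an adjusted p of 0.01. Depth limits *Fas*, and the low counts of *Fdxr*, *Gdf15*, *Perp* and *Rrm2b* give them the larger standard errors.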
